A study of Mus musculus with 6 samples.

Results

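The 10 genes described here encode surface proteins, and in the case of nestin a filament protein, that are commonly used to sort or define mesenchymal stem cells of the bone marrow. They are Ly6a, Thy1, Nt5e, Cd44, Mcam, Alcam, Pdgfra, Pdgfrb, Ngfr and Nes. Their probes were taken as the non-control probes whose accession in the scanner files is a RefSeq transcript of a member, which gave 14 of the 55681 probes and at least 1 probe for each of the 10 genes. The study compared bone marrow cells, labelled and sorted, of young C57BL/6 mice aged 3 months with those of old C57BL/6 mice aged 24 months, each group with 3 samples. The labels call the cells mesenchymal stem cells of the bone marrow and do not name the markers of the sort, the sex of the mice or a treatment. Whether the 3 samples of an age are 3 animals is not stated, and the p-values then describe only how these samples vary, which may be technical.

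Mesenchymal stem cells are the marrow stromal cells that can form bone, fat and cartilage and that support blood formation around vessels. No single protein marks them. In the mouse, PDGFRα together with Sca-1, the product of Ly6a, is used to isolate them, and in human cultures CD73 (Nt5e), CD90 (Thy1) and CD44 belong to the usual surface panel. Most of these proteins are also carried by other cells of the marrow: Sca-1 by blood stem cells and lymphocytes, Thy1 by T cells, CD44 by most leukocytes, and Mcam by endothelial and perivascular cells.

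Values below are processed signals on the log2 scale relative to the 75th percentile of the same array, so 0 is the level of that percentile, and the 3 values of a group are listed in the order of replicates 1, 2 and 3. A probe counts as measured on an array where the scanner software called it well above background. The share of probes so called was 55.2% to 60% in young arrays, compared with 50.9% to 53.4% on the old arrays, and no spot was saturated. The old arrays were dimmer, with the 75th percentile at a processed signal of 206 to 285 against 277 to 349 on the young arrays. The numbers in the scanner file names, read here as slide row and column, put the young and old arrays in different rows. On that reading, slide row and age group cannot be told apart. Young replicate 3 stood apart from the other young arrays in several of the genes below. The Thy1, Ly6a, Nt5e, Alcam and Ngfr values and the calls in the gene lists are also given without it.

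Detection of the markers is given first. Of the 10 markers, 6 were measured on all 6 arrays with their chosen probe (Ly6a, Thy1, Cd44, Mcam, Ngfr and Nes), 2 on 3 young arrays plus 1 old array (Nt5e and Alcam), and 2 on no array (Pdgfra and Pdgfrb). Among the 20018 genes with a symbol on the array, 60.7% were measured on all 6 arrays and 26% on none, so the share of markers detected is close to that of genes in general. The exact pattern of Nt5e and Alcam, 3 young arrays and 1 old array, was seen in 1.42% of all genes with a symbol. Loss on old arrays was the general direction. Of all genes with a symbol, 5.28% were measured on 3 young and 0 to 2 old arrays. The reverse, 3 old and 0 to 2 young arrays, held for 0.265%. The RNA of both PDGF receptors, of which PDGFRα is used to isolate these cells in the mouse, was thus not well above background in any sample. Each receptor was read by 1 probe, and how well these probes bind was not tested. Of 26 other stromal genes in a list given below, 10 were measured on all arrays and 9 on none. All 10 leukocyte genes of another list were measured on every array. The identity of the cells was not tested, so the samples are called young and old samples. In bulk RNA, fewer cells of a type and less RNA per cell cannot be told apart.

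Promoter sequences are shown for 3 members that stand for the 3 detection patterns: Mcam, measured on all arrays, Nt5e, measured on all young arrays but only 1 old array, and Pdgfra, measured on none. They run from 250 bases before to 50 bases after the gene's start in RefSeq on GRCm38.p6, and lie at chr9:44134408-44134707 on the plus strand, chr9:88327359-88327658 on the plus strand and chr5:75152001-75152300 on the plus strand. Capitals mark GC boxes, the letters GGGCGG or their complement CCGCCC, which may overlap each other.
Mcam: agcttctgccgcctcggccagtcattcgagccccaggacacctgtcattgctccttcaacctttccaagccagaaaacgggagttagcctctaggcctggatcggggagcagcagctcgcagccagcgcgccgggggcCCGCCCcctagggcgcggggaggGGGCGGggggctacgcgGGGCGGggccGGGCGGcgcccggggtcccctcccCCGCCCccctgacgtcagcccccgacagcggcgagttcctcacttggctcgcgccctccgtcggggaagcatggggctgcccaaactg
Nt5e: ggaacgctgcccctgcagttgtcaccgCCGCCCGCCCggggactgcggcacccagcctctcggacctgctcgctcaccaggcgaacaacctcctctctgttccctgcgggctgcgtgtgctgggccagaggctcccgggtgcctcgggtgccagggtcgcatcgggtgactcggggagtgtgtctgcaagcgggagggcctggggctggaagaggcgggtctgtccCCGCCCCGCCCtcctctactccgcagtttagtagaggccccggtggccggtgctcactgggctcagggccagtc
Pdgfra: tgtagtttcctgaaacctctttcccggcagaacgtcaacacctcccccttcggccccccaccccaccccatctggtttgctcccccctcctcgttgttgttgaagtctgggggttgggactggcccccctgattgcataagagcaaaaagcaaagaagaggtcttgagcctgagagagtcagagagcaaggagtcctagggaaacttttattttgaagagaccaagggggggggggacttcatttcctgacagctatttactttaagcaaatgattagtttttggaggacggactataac
The Mcam window held 5 GC boxes and 29 CpG dinucleotides, the Nt5e window 4 and 23, and the Pdgfra window none and 5, against a median of 7 CpG dinucleotides over the 32851 promoters in the table. Of the 7 members with an entry (Cd44, Nes, Pdgfra, Mcam, Nt5e, Ngfr and Alcam), 6 held at least 1 GC box, as did 35.7% of all promoters, and none held TATAAA or its complement, which 13.6% of all promoters held. Nt5e and Ngfr had equal numbers of boxes (4) and of CpG dinucleotides (23) and different detection. These counts describe the letters in these windows and nothing measured on the arrays.

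The age comparison asks whether RNA levels of the sorted cells differ between young adult and aged mice. Of the 8 markers that could be tested, 1 passed the threshold, Thy1, which fell, and 7 did not. Over all 23264 genes tested, 8.01% passed, 4.04% lower and 3.98% higher in old samples, so 1 of 8 is near the background. The median log2 fold change of the 8 was -0.35, against 0.07 over all genes tested. Old and young values did not overlap in 4 of the 8 (Ly6a, Thy1 and Nt5e lower and Cd44 higher in old samples), whereas 36% of all genes tested had groups that did not overlap and 13.1% of all genes tested did so with lower values in old samples. Ly6a, Nt5e and Cd44 reached an unadjusted limma p under 0.05, as did 27.8% of all genes, and missed the adjusted threshold. Intervals given below are 95% intervals of single genes from the same fit and are not adjusted, so an interval that leaves out 0 is not a call.

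**Figure D1:**
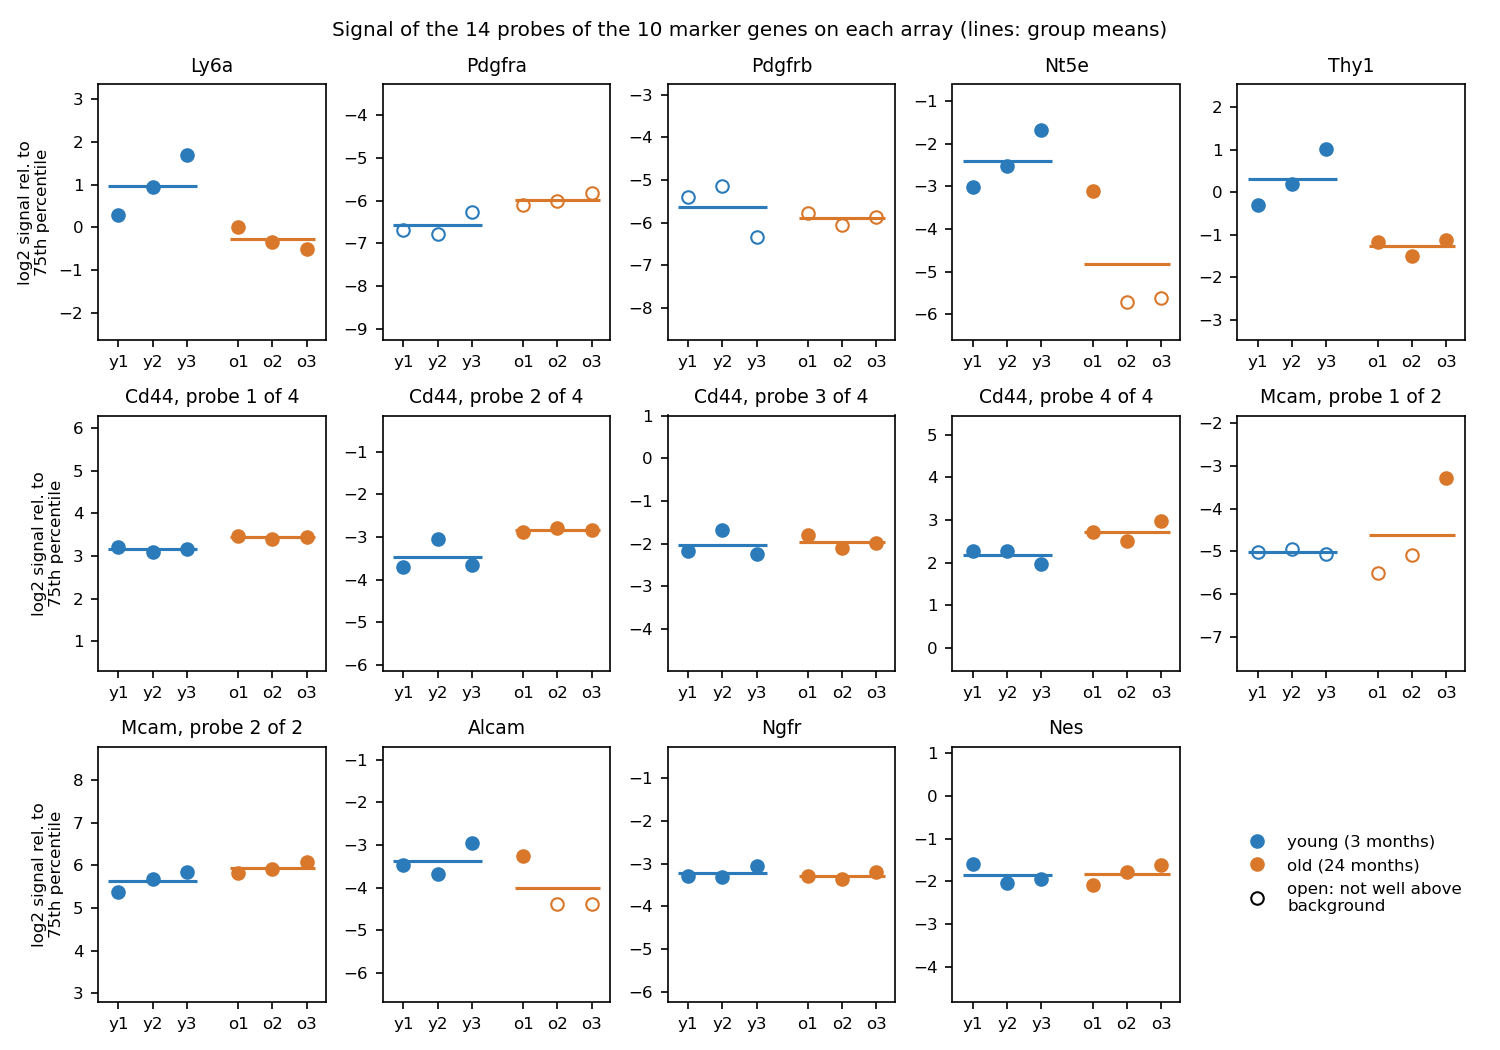
Signal of the 14 marker probes on each array. The y axis is the log2 processed signal over the 75th percentile of the array (each panel spans the same 6 log2 units), points are arrays (y1 to y3 young, o1 to o3 old), open points are not well above background, and lines are group means. Thy1, Ly6a and Nt5e lie lower in all old samples, the values of the chosen Cd44 probe (probe 1 of 4) lie close together within a group, and Pdgfra and Pdgfrb are open throughout.

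**Figure D2:**
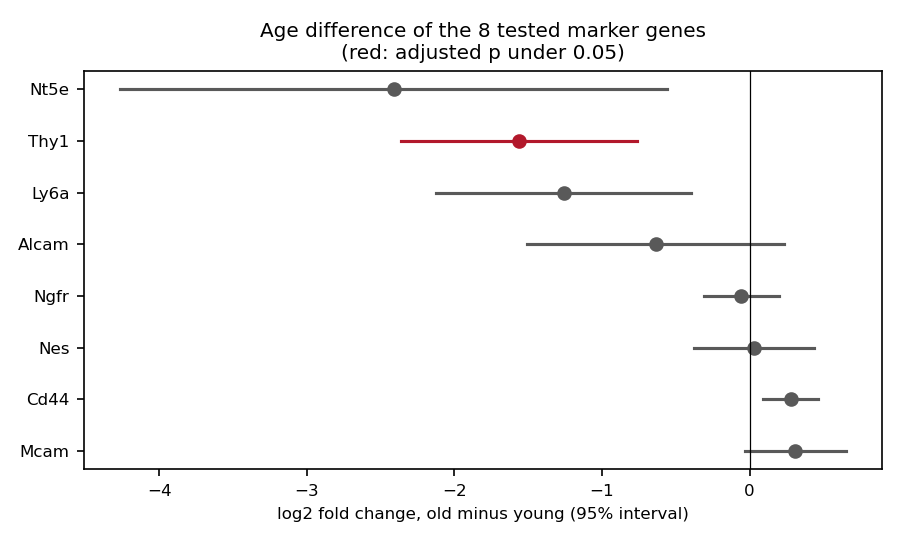
Log2 fold changes, old minus young, of the 8 tested markers with 95% intervals from limma (3 young and 3 old samples). Only Thy1 (red, -1.56) passed the adjusted threshold, and Nt5e has the widest interval, from -4.26 to -0.56.

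Thy1, Ly6a and Nt5e encode proteins held on the cell surface by a lipid (glycosylphosphatidylinositol) anchor. Thy1 (NM_009382), a small immunoglobulin-like protein first known from thymocytes and neurons, had log2 signals of -0.29, 0.19 and 1.02 in young samples and -1.16, -1.49 and -1.12 in old samples. The highest old sample lay below the lowest young sample, and young replicate 3 was the highest of all. Thy1 was 2.95-fold lower in old samples, with a log2 fold change of -1.56 ± 0.33 (SE, interval -2.36 to -0.76, limma adjusted p = 0.0436). The mean ± SD was 0.30 ± 0.66 in young samples and -1.26 ± 0.20 in old samples (n = 3 each), so the spread of the young samples was the larger.

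Leaving out 1 array at a time changed the Thy1 call in most cases. It passed without young replicate 1 (limma adjusted p = 0.0491) and missed the threshold without young replicate 2 (0.115), young replicate 3 (0.0571), old replicate 1 (0.0818), old replicate 2 (0.124) or old replicate 3 (0.115). The fold change itself ranged from -1.86 to -1.20 over these 6 fits, and the smallest was the one without young replicate 3. It also missed the threshold with cyclic loess scaling (adjusted p = 0.0507) at a fold change of -1.62. Thy1 was lower in old samples in all 17 alternatives, as the plot of Thy1 by setting shows.

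**Figure D3:**
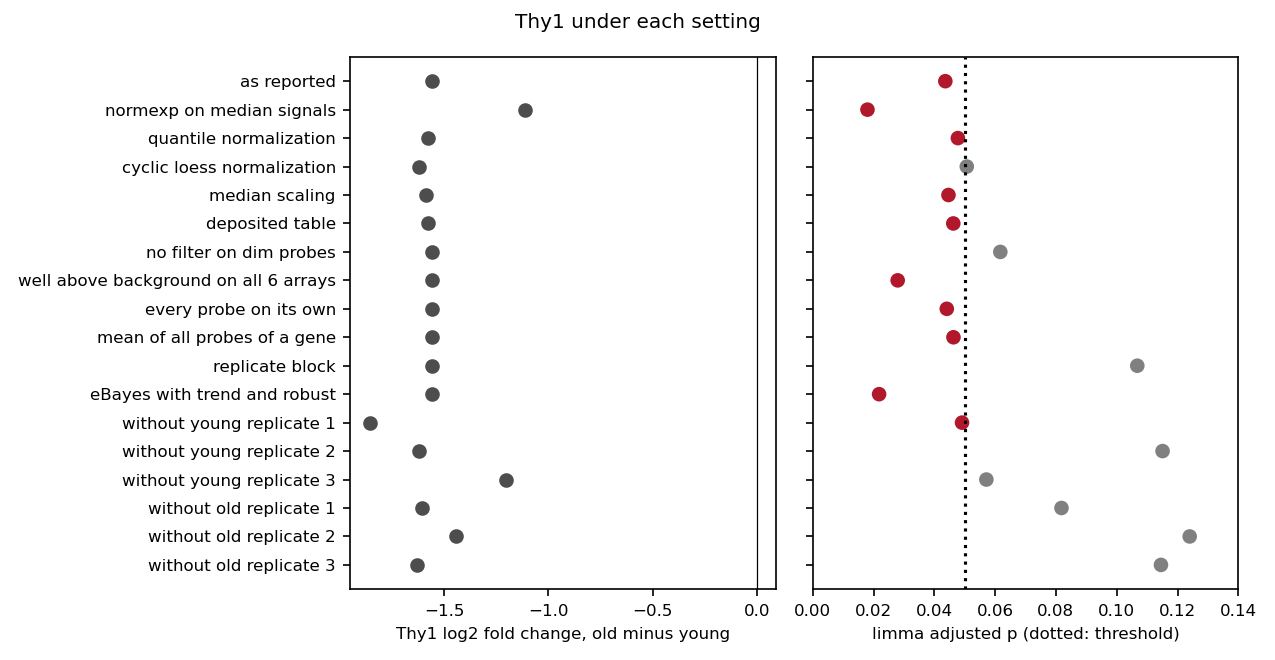
Thy1 under each setting: log2 fold change, old minus young (left), and limma adjusted p (right, red where it is under 0.05, dotted line at the threshold). The fold change stays between -1.86 and -1.11, while the adjusted p runs from 0.0180 to 0.124 and crosses the threshold.

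T cells carry Thy1, so the T cell markers are given beside it. Of 14 T cell genes 13 could be tested, 10 had negative fold changes, and the median was -1.08. Only 1 of them passed in that direction, the T cell factor gene Tcf7. It was at least 1.47-fold lower and not well above background on any old array (limma adjusted p = 0.0493 for the fitted difference). Cd3e, a signalling chain of the T cell receptor, rose by a log2 value of 0.80 ± 0.13 (adjusted p = 0.0276) and the co-receptor gene Cd8a by 0.61 ± 0.13 (adjusted p = 0.0456). Of their partner chains, Cd3d (-1.53 ± 0.42, limma adjusted p = 0.0810), Cd3g (-1.08 ± 0.53, adjusted p = 0.244) and Cd8b1 had negative fold changes and did not pass. Cd8b1 was at least 2.35-fold lower in old samples and not well above background on any old array (adjusted p = 0.0593 for the fitted difference). The summed level of the list was 18.6 to 24.2 times the 75th percentile in young arrays, compared with 21 to 24.5 times on the old arrays, so the ranges of the groups overlapped. This sum is weighted to the brightest genes, Cd4 (mean log2 signal 3.05 in young and 3.41 in old samples) and Cd3e (2.24 and 3.04). Both were higher in old samples, so the sum says little about the other T cell genes. Young replicate 3 was the highest young array in 11 of the 13 genes, as it was for Thy1. The part of T cells in the Thy1 result was not tested.

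By position in the RefSeq table of GRCm38.p6, Thy1 and Mcam are close neighbours on chromosome 9, with 7 genes between them, 4 of these protein-coding. The 2 that could be tested, the ubiquitin protease gene Usp2 (-0.15 ± 0.21) and the ubiquitin ligase gene Rnf26 (-0.02 ± 0.07), did not pass (limma adjusted p = 0.681 and 0.868), and Mcam itself had a positive fold change. Among genes with a symbol measured on all arrays, the values closest in pattern to Thy1 over the 6 arrays were those of AI467606 (Pearson r = 0.9992) and Btg1c (r = 0.9984). These r values come from 6 arrays in 2 groups and are the highest of the 12153 genes compared, of which 815 had an r above 0.9. They are thus not read as a link to Thy1. The likeness is in shape and not in size: AI467606 had a fold change of -0.36 ± 0.10 and did not pass (limma adjusted p = 0.0855), while Btg1c fell by 1.26 ± 0.26 (adjusted p = 0.0422).

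Ly6a (NM_010738) encodes Sca-1. Its log2 signals were 0.29, 0.95 and 1.69 in young samples and 0.00, -0.35 and -0.50 in old samples. All old values lay below the young ones, and young replicate 3 was again the highest. The log2 fold change was -1.26 ± 0.36 (interval -2.12 to -0.40), which missed the threshold at a limma adjusted p of 0.0834. It was -0.90 without young replicate 3 (adjusted p = 0.129) and -1.60 without young replicate 1 (adjusted p = 0.0508), and with normexp background correction it passed (-1.04, adjusted p = 0.0314).

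Ly6a is 1 of a family of small Ly6 genes, several of which mark subsets of blood cells. Of 10 further Ly6 genes in the list 8 were found on the array under their symbols and all 8 could be tested. Ly6d, an early B-lineage marker, fell by a log2 value of 2.07 ± 0.40 (limma adjusted p = 0.0359), and Ly6c1 by 1.44 ± 0.32 (adjusted p = 0.0492). The other 6 did not pass, and the median of the 8 was 0.01. Members of this family are close in sequence, and whether the Ly6a probe also binds RNA of a relative was not tested.

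Nt5e (NM_011851) encodes CD73, the ectoenzyme that makes adenosine from AMP outside the cell. Its log2 signals were -3.03, -2.52 and -1.68 in young samples and -3.11, -5.72 and -5.62 in old samples. Old replicate 1 lay just below young replicate 1, and the other 2 old arrays were not well above background and near their blank spots. The processed signal was 41.1, 60.8 and 86.8 in young arrays, compared with 33.1, 4.24 and 4.17 on the old arrays. The log2 fold change was -2.41 ± 0.76 (interval -4.26 to -0.56), and the limma adjusted p of 0.107 missed the threshold.

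Nt5e passed the threshold only in the fit without old replicate 1. With any other array left out it missed the threshold, with limma adjusted p from 0.151 to 0.257. Without young replicate 3 the fold change was -2.05 (adjusted p = 0.240). Without old replicate 1 neither old value left was well above background, so the difference is given as a bound, at least 2.66-fold lower in old samples. The limma adjusted p of 0.0385 in that fit belongs to the fitted -3.27 and does not test the bound. With normexp, which adds an offset that shrinks differences of dim probes, the fold change was -0.35 (adjusted p = 0.190). Of the enzymes and receptors that act with CD73, the adenosine deaminase gene Ada (0.15 ± 0.11) and the receptor genes Adora2a (-0.57 ± 0.17) and Adora2b (0.21 ± 0.20) did not pass, with limma adjusted p of 0.422, 0.0937 and 0.538. The adenosine receptor gene Adora3 was at least 2.74-fold lower in old samples and not well above background on any old array (adjusted p = 0.0233 for the fitted difference). Entpd1, which encodes CD39, the enzyme upstream of CD73, was measured on no array.

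Cd44, Mcam and Alcam encode adhesion molecules that span the membrane. Cd44 (NM_009851), the receptor for hyaluronan, had 4 probes, all assigned to the same transcript and all measured on all 6 arrays. The chosen probe had log2 signals of 3.20, 3.10 and 3.15 in young samples and 3.46, 3.40 and 3.43 in old samples. The groups did not overlap, and the values within a group differed by at most 0.10. The fold change was small, 0.28 ± 0.08 on the log2 scale or 1.21-fold (interval 0.09 to 0.47), and missed the threshold at a limma adjusted p of 0.0788.

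The other 3 Cd44 probes were fitted with every probe tested on its own, where 7.8% of 31281 probes passed. Their log2 fold changes were 0.63 ± 0.19, 0.07 ± 0.17 and 0.56 ± 0.16, with limma adjusted p of 0.0996, 0.823 and 0.0837, so none passed (3.77% of all probes passed lower and 4.03% higher). Of the 4 probes 3 had higher values in all old samples than in any young sample, as did 22.5% of all probes tested and, with 1 probe a gene, 22.9% of all genes. The chosen probe passed only when the variance was moderated with a trend and robust weights (adjusted p = 0.0324), and its fold change was 0.19 to 0.25 under normexp, the other scalings and the deposited table.

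The genes that act with CD44 were measured unevenly. The hyaluronan synthase genes Has1 and Has2 were measured on no array and Has3 on 1 array of each group. Srgn, which encodes serglycin, a CD44-binding proteoglycan of blood cells, was measured on all arrays (-0.20 ± 0.10, limma adjusted p = 0.265), as was the hyaluronan receptor gene Hmmr (-0.16 ± 0.12, adjusted p = 0.428). Spp1, which encodes osteopontin, was measured on 1 young array and no old array.

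Mcam (NM_023061) encodes CD146, an adhesion molecule of endothelial and perivascular cells. Its 2 probes, assigned to the same transcript, disagreed on detection. The chosen probe was measured on all 6 arrays, with log2 signals of 5.39, 5.67 and 5.84 in young samples and 5.82, 5.93 and 6.08 in old samples, which corresponds to processed signals between 13632 and 17773. The groups overlapped, and the fold change of 0.31 ± 0.14 (interval -0.03 to 0.65) did not pass (limma adjusted p = 0.214).

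The second Mcam probe had processed signals of 10.3, 11.4 and 8.30 in young arrays, compared with 6.28, 6.56 and 21.3 on the old arrays. It was well above background only in old replicate 3 and could not be tested. The sequences of the probes are not used here, so which part of the transcript each one reads was not tested.

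Endothelial genes are given beside Mcam. Of the 14 in the list 5 were measured on all arrays and 2 on none, 10 could be tested, and 1 passed, the VEGF receptor gene Kdr, which rose by a log2 value of 0.81 ± 0.16 (limma adjusted p = 0.0391). Another VEGF receptor gene, Flt1, was at least 1.93-fold lower in old samples and not well above background on any old array. It did not pass (limma adjusted p = 0.140 for the fitted difference). Pecam1, the common endothelial adhesion molecule, was at -1.44, -1.41 and -1.27 in young samples and -1.60, -1.59 and -1.59 in old samples and did not pass (-0.22 ± 0.08, adjusted p = 0.155). The defining endothelial genes Cdh5 and Tek were each well above background on 1 of 6 arrays. The summed level of the list was 56.4 to 68.5 times the 75th percentile in young samples and 76.7 to 99.4 times in old samples. This sum is weighted to the 2 brightest genes, Kdr (mean log2 signal 4.64 in young and 5.46 in old samples) and Egfl7 (4.62 and 5.01). The median log2 fold change of the list was -0.02, with 5 of 10 negative. Cldn5, a tight junction gene, was lower in all old samples, as was Pecam1, and neither passed (-0.80 ± 0.25, limma adjusted p = 0.101 for Cldn5). The part of endothelial cells in the Mcam values was not tested.

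Alcam (NM_009655) encodes CD166, the ligand of the lymphocyte protein CD6. Its log2 signals were -3.47, -3.68 and -2.96 in young samples and -3.25, -4.39 and -4.39 in old samples. Like Nt5e, it was well above background in all young samples and in old replicate 1 but not in old replicates 2 and 3. Old replicate 1 lay within the young range, so the groups overlapped. The fold change of -0.64 ± 0.36 (interval -1.51 to 0.24) did not pass (limma adjusted p = 0.302) and turned to 0.13 with normexp. Without young replicate 3 it was -0.43 (limma adjusted p = 0.551). Without old replicate 1 neither old value was well above background, and Alcam was at least 1.36-fold lower in old samples. The fitted difference of -1.02 did not pass (limma adjusted p = 0.0695). Cd6 did not pass either (-0.29 ± 0.21, adjusted p = 0.419).

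Pdgfra, Pdgfrb and Ngfr encode growth factor receptors. Pdgfra (NM_011058) was printed as 10 spots of 1 probe on each array, and 57 spots were left in all after outliers were removed. None of the 57 was well above background. The mean log2 signal was -6.68, -6.78 and -6.27 in young samples and -6.10, -6.00 and -5.82 in old samples, and the median of the negative control spots on the same arrays was -6.73, -6.83, -6.33, -6.11, -6.01 and -5.84. The Pdgfra signal followed the blank spots array by array, and both were higher relative to the percentile on the dimmer old arrays, so no fold is given.

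Pdgfrb (NM_001146268) had 1 probe, with processed signals of 7.98, 9.81 and 3.41 in young arrays, compared with 5.20, 3.38 and 3.54 on the old arrays. None was well above background, and the groups overlapped. Among their ligands, Pdgfb (-0.02 ± 0.29) and Pdgfd (0.16 ± 0.22) were measured on all 6 arrays and did not pass (limma adjusted p = 0.977 and 0.686), Pdgfa was measured on 2 young arrays, and Pdgfc on none.

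Ngfr (NM_033217), the low-affinity neurotrophin receptor CD271 used to enrich marrow stromal cells in humans, was also printed as 10 spots of 1 probe. Of the 58 spots left, 53 were well above background, 7 to 10 on an array. The mean log2 signal was -3.30, -3.32 and -3.07 in young samples and -3.30, -3.36 and -3.19 in old samples. The groups overlapped, and the fold change of -0.06 ± 0.10 (interval -0.31 to 0.20) did not pass (limma adjusted p = 0.762). The bounds of the interval correspond to 1.24-fold lower and 1.15-fold higher, and without young replicate 3 the fold change was 0.024. Spots of the same array differed more than the arrays did, with an SD between spots of 0.15 to 0.51.

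**Figure D4:**
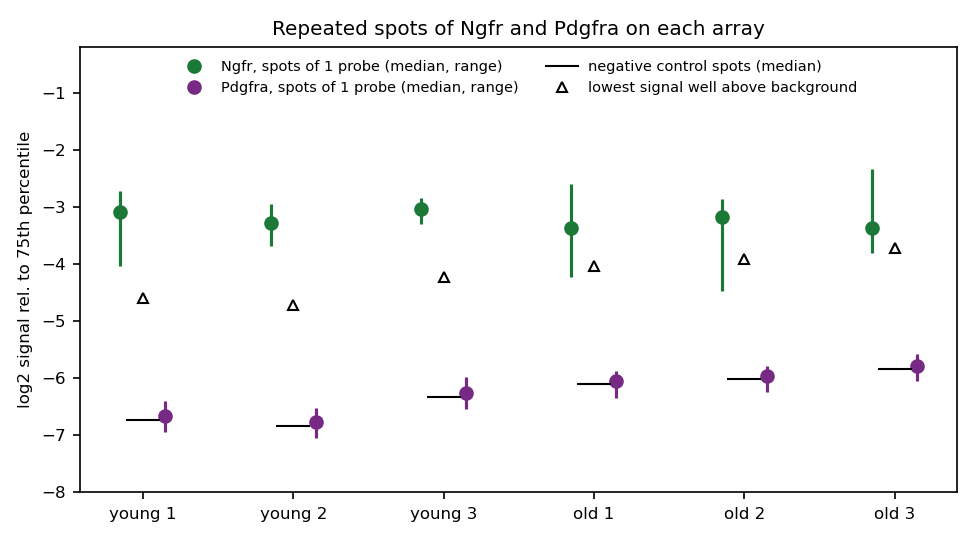
Repeated spots of the Ngfr and Pdgfra probes on each array, as the log2 processed signal relative to the 75th percentile (points: medians of 9 or 10 spots, lines: lowest to highest spot). Horizontal marks show the median of 308 negative control spots and triangles the lowest signal well above background. Ngfr medians lie above the triangles on every array, and Pdgfra lies on the blank level, which is higher on the old arrays.

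Ngfr is also a gene of Schwann cells, and of 10 neural and Schwann genes in the list 6 could be tested and none passed. Sort1, which encodes the sorting receptor sortilin, a partner of the Ngfr product, was lower in all old samples without passing (-0.98 ± 0.25, limma adjusted p = 0.0670). The 2 genes of the neural list with the smallest p were the adhesion molecule gene Ncam1 (-1.15 ± 0.31, adjusted p = 0.0789) and the filament gene Gfap (0.30 ± 0.09, adjusted p = 0.102).

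Nes (NM_016701) encodes nestin, an intermediate filament protein of neural and perivascular progenitor cells. Its log2 signals were -1.59, -2.03 and -1.93 in young samples and -2.08, -1.78 and -1.62 in old samples. The groups overlapped almost fully, with means ± SD of -1.85 ± 0.23 and -1.82 ± 0.23 (n = 3 each). The fold change was 0.03 ± 0.17 (interval -0.38 to 0.44, limma adjusted p = 0.928), and its sign changed with the scaling. Vim, the gene of the related filament protein vimentin found in mesenchymal cells and leukocytes, fell by a log2 value of 1.74 ± 0.29 (adjusted p = 0.0296).

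The markers were then set beside 8 further lists with 123 genes, of which 85 could be tested. In these lists 20 genes passed, 16 lower and 4 higher in old samples, which is 23.5% of those tested. Over all genes tested, 8.01% passed, 4.04% lower and 3.98% higher. The lists were chosen with earlier results of these data known, so the higher share is not read as a result. Without young replicate 3, 5 of these genes passed (Cd52, Flt3, Lgals1, Ptprc and Vim, with limma adjusted p of 0.0478, 0.0360, 0.0466, 0.0471 and 0.0491), and the others kept their direction and missed the threshold. The number that passed was 13 and 3 without young replicates 1 and 2, 11 without old replicate 1, and 0 without old replicate 2 or old replicate 3. Among the 10 leukocyte genes, all were measured on all 6 arrays and 6 fell. They include the leukocyte antigen gene Ptprc (-1.28 ± 0.24, limma adjusted p = 0.0359), the GPI-anchored protein genes Cd52 (-1.62 ± 0.27, limma adjusted p = 0.0297) and Cd48 (-0.91 ± 0.16, adjusted p = 0.0310) and the actin-binding protein gene Coro1a (-1.52 ± 0.30, adjusted p = 0.0375). The list's median was -1.26, and its summed level was 152 to 201 times the 75th percentile in young samples and 108 to 118 times in old samples. Young replicate 3 was the highest young array in 8 of the 10. Leukocytes also carry Ly6a and Thy1, both lower in all old samples and highest in young replicate 3, and the part of these cells in those values was not tested.

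**Figure D5:**
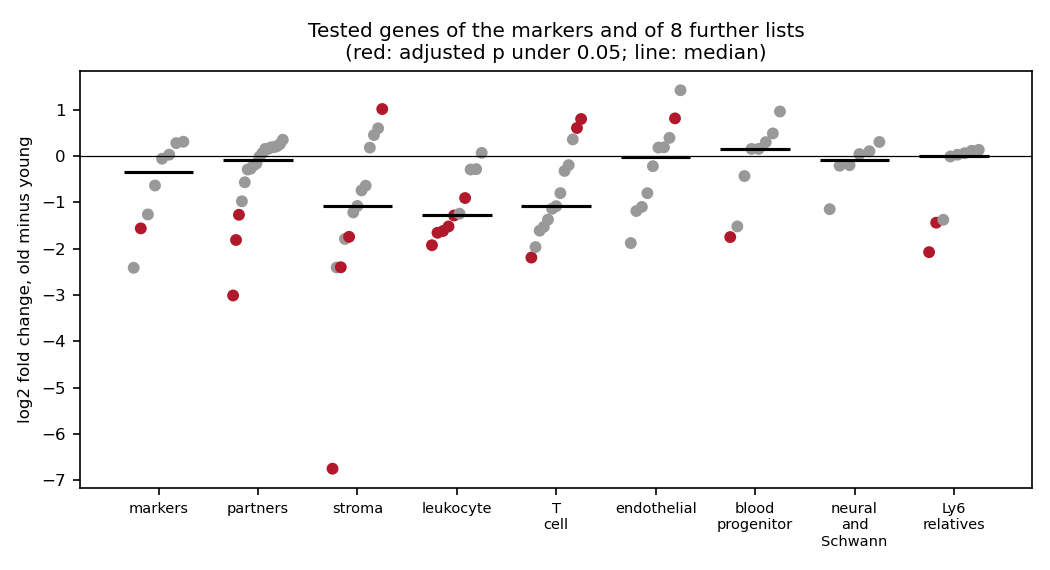
Fitted log2 fold changes, old minus young, of the tested genes of the marker list and of the 8 further lists (red: limma adjusted p under 0.05, line: median of the list). Values of genes not well above background on any old array, such as Col1a1 at the bottom of the stroma list, are fitted values and no bounds. The leukocyte list (median -1.26) holds 6 calls, all lower, and the marker list (median -0.35) holds 1.

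Of 26 other stromal genes, 10 were measured on all arrays and 9 on none, the latter including the pericyte gene Rgs5, the hedgehog effector gene Gli1 and the podoplanin gene Pdpn. Of 13 tested, 3 fell and 1 rose, against 4.04% lower and 3.98% higher over all genes tested. The median was -1.08, with 9 of 13 negative. Col1a1, the main collagen of bone, was at least 29.8-fold lower in old samples (limma adjusted p = 0.0222, not well above background on any old array), and Vim and the chemokine gene Cxcl12 fell (Cxcl12 by 2.40 ± 0.43, adjusted p = 0.0324), while the leptin receptor gene Lepr rose by 1.02 ± 0.14 (adjusted p = 0.0251).

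Ligands and partners of the markers formed a list of 30, with 18 tested and 3 lower, against 4.04% lower over all genes tested. Besides Adora3 these were the galectin genes Lgals1, by 1.27 ± 0.18 (limma adjusted p = 0.0259), and Lgals3, by 1.81 ± 0.30 (adjusted p = 0.0290), which encode lectins that bind surface glycoproteins. The integrin gene Itgb1 (CD29), itself part of many stromal panels, was at 2.77, 2.90 and 2.89 in young samples and 3.31, 2.98 and 3.33 in old samples and did not pass (0.35 ± 0.12, adjusted p = 0.125). Of 10 blood stem and progenitor genes, 8 were tested and 1 fell, the receptor gene Flt3 (-1.75 ± 0.17, adjusted p = 0.0178). Cd34 was lower in all old samples without passing (-1.52 ± 0.38, adjusted p = 0.0631), and Kit overlapped between the groups (0.15 ± 0.21, adjusted p = 0.676).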

How the data were processed

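Total RNA of the 6 samples was labelled with 1 dye and hybridised to Agilent arrays, 1 array a sample, and groups and replicate numbers come from the sample titles. Each deposited scanner file holds spot intensity values that, per the file headers, Feature Extraction 10.7.3.1 subtracted for background and detrended within the array without scaling between arrays. Version 10.5.1.1 stands in the submitters' processing notes. The authors also deposited log2 values for 52095 probes, scaled by a method not given in the sources used here. Their column medians, young 1 to 3 then old 1 to 3, were 4.91, 4.92, 4.95, 4.94, 4.92 and 4.87, and each column correlated with its own array at r of at least 0.9986 across probes. This table was an alternative.

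Control spots and 87 to 198 feature outliers per array were left out, repeated spots were averaged, and each array's 75th percentile was subtracted from the log2 processed intensity. Symbols came by accession from a RefSeq table of GRCm38.p6 (26413 of 55681 probes matched). A gene was represented by its probe with the highest mean and tested if at least 3 of the 6 arrays had it well above background, whatever their group. The 2 ages were contrasted in limma 3.58.1 (R 4.3.3), with Benjamini-Hochberg adjustment over all 23264 genes and a threshold of 0.05. Tables were made in Python 3.11.15 with pandas 2.3.3. An at-least fold sets the measured group's mean against the lowest signal well above background on each dim array, or the gene's own signal where that is higher. A p printed with it is that of the fitted difference and does not test the bound.

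The members and gene lists were chosen with earlier results of these data known. Beyond the members, the text names the up to 4 called genes of each list with the smallest p (otherwise the 2 with the smallest p), Ptprc, Lepr and Pecam1, and the 2 genes closest in pattern to a called member. Other genes were named after their values were seen: Ada, Adora2a, Adora2b, Entpd1, Has1, Has2, Has3, Srgn, Hmmr, Spp1, the PDGF genes, Sort1, Cd6, Cd4, Cd3d, Cd3g, Cd8b1, Cdh5, Tek, Cldn5, Egfl7, Flt1, Col1a2, Rgs5, Gli1, Pdpn, Itgb1, Cd34, Kit, Usp2 and Rnf26. Same-numbered samples did not deviate together (r = -0.03, 0.02 and -0.01 over 23244 genes), so the numbers were not used as pairs. The fit was tested on simulated data. The number of arrays limits the precision.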

Additional observations from a re-analysis of the deposited data

How the results depend on the processing

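Against 1864 genes past the threshold, 925 higher and 939 lower (49.6% higher), limma with Benjamini-Hochberg adjustment called 3016 with normexp correction of the median signals (62.9% higher; chosen after seeing the data in place of the mean signals) and 3264 with trend and robust moderation, and the deposited table gave 39% higher. It called 0 under the replicate block (5553 at an unadjusted p under 0.05) and 0 without the filter on dim probes (11662 unadjusted), and 1 to 1153 with 1 array left out: 768, 63 and 321 without young replicates 1 to 3 and 1153, 1 and 5 without old replicates 1 to 3. Of the markers, 1 passed as reported, 2 passed with normexp (Thy1 and Ly6a) and with trend and robust moderation (Thy1 and Cd44), 0 with cyclic loess, without the filter and with the block, and 0 to 1 with 1 array left out (Thy1 without young replicate 1, Nt5e without old replicate 1). Of the genes of the 8 further lists, 20 passed as reported, 0 without the filter and with the block, and 0 to 13 with 1 array left out.

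Thy1 missed the threshold with cyclic loess (-1.62, adjusted p = 0.0507), without the filter (-1.56, adjusted p = 0.0617) and with the replicate block (-1.56, adjusted p = 0.107), and ranged from -1.86 to -1.20 with 1 array left out. The block's numbers are not known to pair the samples. Ly6a passed with normexp at -1.04, Cd44 with trend and robust moderation at 0.28, and Nt5e without old replicate 1 at a fitted -3.27 (range -3.27 to -1.96), where the old arrays left were not well above background and the bound is at least 2.66-fold. Signs turned for Alcam with normexp (0.13), for Ngfr with normexp (0.22) and without young replicate 3 (0.024, range -0.10 to 0.024), and for Nes with quantile scaling (-0.017), cyclic loess (-0.034) and the deposited table (-0.068), with a range of -0.072 to 0.16 over the fits that left out 1 array. None of the turned values passed. Mcam kept its sign and missed the threshold in all 17 alternatives, with adjusted p from 0.115 to 0.511. The cause of these changes was not tested. Without the filter, Pdgfra and Pdgfrb enter the fit but are not well above background on any array, so no fold is given. Nt5e and Alcam have no value when all 6 arrays must be well above background. Normexp on the mean signals was not run. Signal over background limits Nt5e, Alcam and Ngfr.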
